A study of Homo sapiens with 8 samples.

Results

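CCND1 and MYC are growth genes that steroid hormones are known to act on in breast cancer cells, and the binding sites of the glucocorticoid receptor (GR) and of the progesterone receptor (PR) around them are described here. A site counted when a called peak had at least 1 base within 100 kb of the gene body in the hg19 build, which is chromosome 11 from 69455873 to 69469242 for CCND1 and chromosome 8 from 128748315 to 128753680 for MYC. Of the 94404 peaks in the 8 lists, 36 met this rule, 13 near CCND1 and 23 near MYC. Both genes are read toward higher positions, so upstream means lower positions. Merged where they overlapped, they made 18 sites, 5 near CCND1 and 13 near MYC.

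GR and PR are hormone-activated transcription factors of 1 family that recognise the same DNA element. CCND1 encodes cyclin D1, the partner of CDK4 and CDK6 that drives phosphorylation of the retinoblastoma protein and entry into the cell cycle. MYC encodes a transcription factor that raises the output of genes for growth and metabolism, and its expression is known to depend on enhancers spread over a wide region on both sides of the gene. Progestins are known to raise both transcripts in T47D cells for a short time. No transcript was measured in these data.

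Binding was measured by ChIP-seq, which sequences the DNA pulled down with an antibody against a bound protein, in derivatives of T47D, an established human breast cancer line. In A1-2 cells, which have both receptors per the series' design text, GR was recovered with 2 antibodies after 60 min of 10 nM dexamethasone (Dex, a synthetic glucocorticoid), after 60 min of 10 nM R5020 (a synthetic progestin) and without hormone, and PR was recovered with 1 antibody after R5020 and without hormone. In MTVL WT cells, the control line per the labels, PR was recovered after the same R5020 treatment and without hormone, and input DNA of A1-2 cells made the last of the 8 libraries. All cells were kept for 48 h in serum stripped of hormones and then for 24 h without serum. How A1-2 cells came to express both receptors, and whether either line is a single clone, is not given in the labels. Each condition had 1 library, so differences between conditions could not be checked against replicates, and p-values are not given. The read depth is unknown, and the number of peaks in a list moves with it. The intervals given with shares are exact 95% intervals over peaks and cover counting error only.

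All 36 peaks came from 3 of the 8 lists, those of GR after Dex and of PR after R5020 in A1-2 and in MTVL cells. Near CCND1 there were 5 GR peaks after Dex, and after R5020 there were 4 PR peaks in A1-2 cells and 4 in MTVL cells. Near MYC the same lists held 5, 6 and 12 peaks. The lists of GR after R5020, of GR and PR in untreated cells and of input DNA held 0 peaks in either window, and so no peak had to be left out for overlapping an input peak. A count of 0 was the usual state of those lists. Of consecutive windows of the CCND1 length over the genome, 4.18% held at least 1 peak of GR after R5020, 1.17% a GR peak of untreated A1-2 cells, 1.84% a PR peak of untreated A1-2 cells, 1.35% a PR peak of untreated MTVL cells and 7.17% an input peak. Of windows of the MYC length, 4.01%, 1.13%, 1.77%, 1.32% and 7.03% did, in the same order. The nearest GR peak after R5020 lay 481 kb upstream of CCND1 and 1177 kb upstream of MYC. The nearest input peaks lay 2.01 Mb from CCND1 and 2.20 Mb from MYC.

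How many peaks such a window usually holds was read from the same windows. Near CCND1, the 5 GR peaks after Dex compared with a mean of 1.30 in 14225 windows, of which 7.51% held at least 5. The 4 PR peaks of A1-2 cells compared with a mean of 2.00, and 19.9% of windows held at least 4. The 4 PR peaks of MTVL cells compared with a mean of 3.04, and 33.2% held at least 4. The number of PR peaks at CCND1 was thus above the mean in both lines, but windows with as many were common over the genome. Near MYC, the 5 GR peaks compared with a mean of 1.25 in 14780 windows, of which 7.08% held at least 5. The 6 PR peaks of A1-2 cells compared with a mean of 1.92, with 9.47% of windows at 6 or more, and the 12 PR peaks of MTVL cells compared with a mean of 2.92, with 2.84% of windows at 12 or more. As many peaks as near MYC in all 3 lists together were found in 1.82% of windows, and as many as near CCND1 in 6.5%. Among the windows with a peak of at least 1 of the 3 lists, which leaves out stretches with no called binding, 9.88%, 26.2% and 43.7% held as many peaks as the CCND1 window in the order of lists above, and 9.39%, 12.6% and 3.77% as many as the MYC window.

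**Figure D1:**
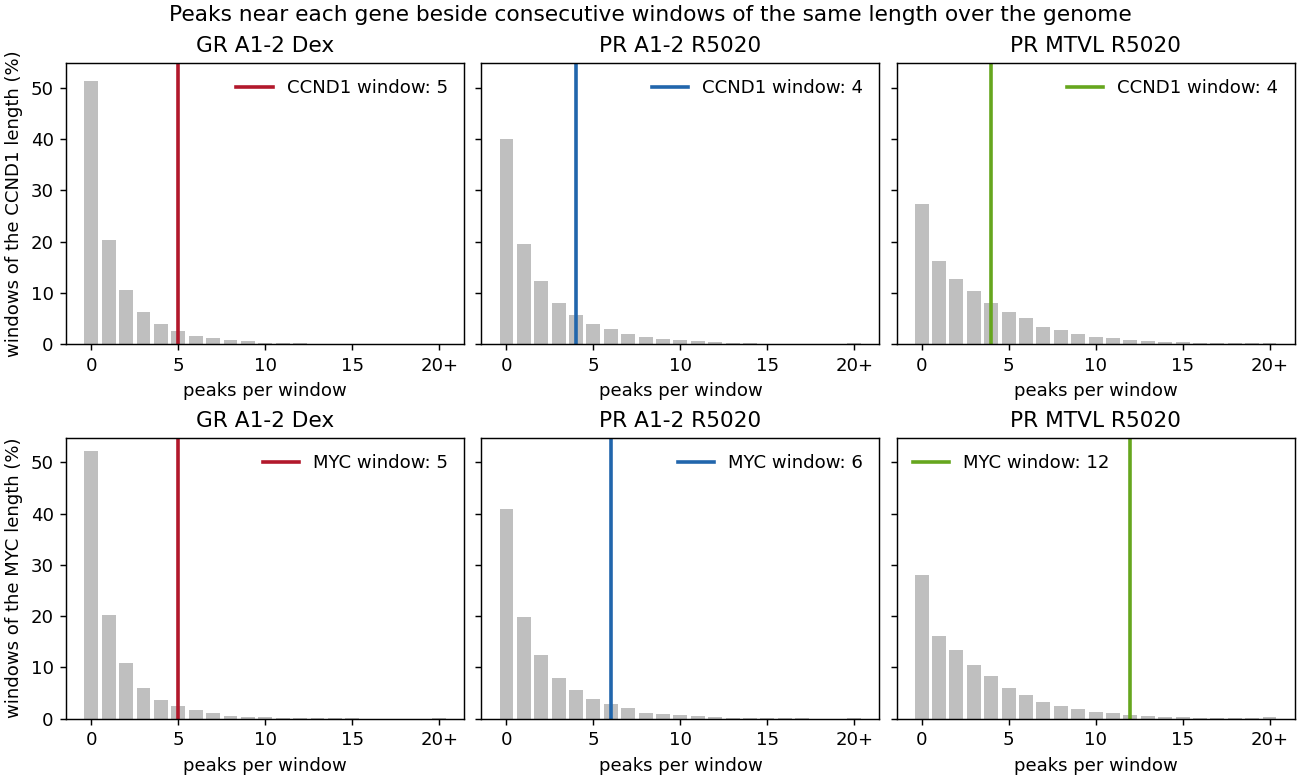
Each panel shows the percent of consecutive genome windows (vertical axis) by the number of peaks they hold (horizontal axis, 20 or more joined), with a coloured line at the count near CCND1 (top row) or MYC (bottom row) for GR after Dex and PR after R5020 in A1-2 cells and PR after R5020 in MTVL cells. The 12 PR peaks of MTVL cells near MYC stand furthest out, with 2.84% of windows at that count or above.

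Most of the sites at CCND1 lay at or next to the gene, and 8 of its 13 peaks scored under 160. Of the 23 peaks near MYC, 4 did. Over the whole lists, 38.8% of GR Dex, 30.4% of A1-2 PR and 24.0% of MTVL PR peaks did. Of its 5 sites, 1 lay upstream, 2 at the gene body and 2 downstream, and all 5 carried a GR peak after Dex. Peaks of all 3 lists were found at 3 of the 5 sites. Over the genome, 51444 sites were merged from the 3 lists. Of these, 22.4% held peaks of all 3 lists and 7.23% a GR Dex peak alone. GR Dex with only A1-2 PR made up 3.65%, and GR Dex with only MTVL PR 2.12%. The sites at and next to the gene scored low in each list, and the downstream sites scored higher. The score is the peak's own value as the authors deposited it, taken as MACS's -10 log10(p), with a lowest possible value of 100. It was used to rank peaks within a list, and with fixed cuts of 160 and 200 that were the same for every list.

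The upstream site held a GR peak after Dex from 69450465 to 69451714 with a score of 126, and a PR peak of A1-2 cells from 69450556 to 69452035 with a score of 139. They ended 4.16 and 3.84 kb before the gene, and their scores were above those of 21.4% and 22.4% of their lists. No PR peak of MTVL cells was called there. Sites held by GR after Dex and PR of A1-2 cells but not by PR of MTVL cells made up 3.65% of the 51444 sites merged over the 3 lists. Among A1-2 PR peaks of the same score decile (133.5 to 158.6) that lay at a GR Dex peak, 37.0% (33.5 to 40.5) of 771 lacked an MTVL peak. Among GR Dex peaks of the same decile (124 to 141) that lay at an A1-2 PR peak, 198 of 1081 did (18.3%, 16.1 to 20.8).

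The site inside the gene, 4.8 kb from its start, held a GR peak after Dex from 69460494 to 69461037 (score 113), a PR peak of A1-2 cells from 69460343 to 69461025 (score 159) and a PR peak of MTVL cells from 69460348 to 69460961 (score 100.1). The MTVL peak stood at the calling threshold, above 0.042% of its list. The GR and A1-2 PR peaks stood above 12.1% and 30.2% of theirs. The site at the end of the gene reached past it in each list, with a GR peak from 69468748 to 69470123 (score 144), an A1-2 PR peak from 69469014 to 69470086 (score 156) and an MTVL PR peak from 69468873 to 69470057 (score 114). These peaks were wide, with 1376, 1073 and 1185 bp, against list medians of 659, 645 and 671 bp. Their scores were above 31.4%, 29.0% and 7.43% of their lists. No peak covered the start of the gene. Whether the peaks inside the gene lie in exons or introns was not analysed here, since the gene table used is of another build.

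The downstream sites ranked higher. The one 44.6 kb past the gene held a GR peak from 69513847 to 69514726 (score 261), an A1-2 PR peak from 69513905 to 69514658 (score 265) and an MTVL PR peak from 69513939 to 69514625 (score 255). These were nearly concentric, with midpoints 5 bp apart between GR and A1-2 PR and 0.5 bp apart between the PR peaks of both lines, against list medians of 39.5 and 38 bp. At the 3 sites nearer the gene the midpoints of GR and A1-2 PR were 206, 81.5 and 114.5 bp apart, from upstream to downstream. The scores of the 44.6 kb site were above 64.2%, 53.3% and 42.9% of the lists of GR, A1-2 PR and MTVL PR.

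The last site, 69.2 kb past the gene, had the highest score near CCND1 in both lists that held it, a GR peak after Dex from 69538407 to 69539075 (score 349.8) and an MTVL PR peak from 69538447 to 69539013 (score 563), with midpoints 11 bp apart. They ranked above 74.9% and 67.0% of their lists. A1-2 cells, in which the GR peak was called, had no PR peak there after R5020. This combination was rare over the genome, but this site, like the upstream one, was singled out after its calls were seen. Sites held by GR after Dex and PR of MTVL cells but not by PR of A1-2 cells were 2.12% of the merged sites. Among MTVL PR peaks of the same score decile (434.6 to 641) that lay at a GR Dex peak, 82 of 1278 lacked an A1-2 PR peak (6.42%, 5.14 to 7.90), and among all MTVL PR peaks of that decile 35.4% (34.0 to 36.9) did. Among GR Dex peaks of the same decile (302 to 419) at an MTVL PR site, 48 of 1482 did (3.24%, 2.40 to 4.27). Of all GR Dex peaks of that decile, 176 of 1842 lacked an A1-2 PR peak (9.55%, 8.25 to 11.0). GR was mapped after Dex and PR after R5020, and GR after R5020 had no peak at this site.

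**Figure D2:**
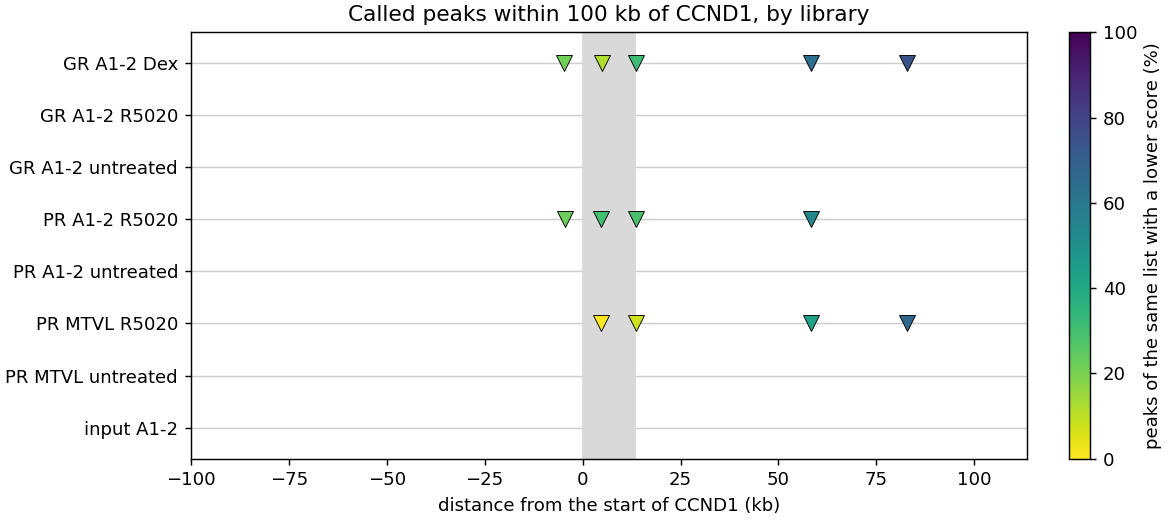
Called peaks of the 8 libraries (rows) by the distance of the peak's midpoint from the start of CCND1 in kb (horizontal axis), with the gene body in grey, symbols of fixed size and colour for the percent of the same list that scored lower. The 3 lists with peaks share the sites at the gene body and the one 44.6 kb past it, while the upstream site lacks an MTVL peak and the last site lacks an A1-2 PR peak.

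At MYC the picture was the reverse in position. No peak touched the gene body, and the nearest peaks lay 25.0 kb downstream for PR of MTVL cells, 47.9 kb downstream for PR of A1-2 cells and 59.1 kb downstream for GR after Dex. All 6 A1-2 PR peaks, 4 of 5 GR peaks and 11 of 12 MTVL PR peaks were downstream. The gene that follows MYC in this direction in the RefSeq gene table (GRCh38.p14) is PVT1, a long noncoding RNA gene. The only upstream peaks were a GR peak from 128684262 to 128684840 (score 189), 63.5 kb before the gene and with no PR peak in either line, and an MTVL PR peak from 128662214 to 128662839 (score 219), 85.5 kb before it. Sites of GR alone made up 7.23% of the merged sites and those of MTVL PR alone 36.5%.

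A stretch of 11.33 to 12.03 kb held 14 of the 23 peaks near MYC. It contained 4 of the 5 GR peaks from 128812796 to 128824124, 4 of the 6 A1-2 PR peaks from 128812799 to 128824305 and 6 of the 12 MTVL PR peaks from 128812361 to 128824387, which is 58.7 to 70.7 kb past the gene. The 4 sites of MYC held by all 3 lists lay in it. Of all GR Dex peaks 5.2% lay in a stretch with 4 peaks as close together as these, of all A1-2 PR peaks 6.8% did, and of all MTVL PR peaks 0.636% lay in a stretch of 6 peaks as close. The stretch was singled out after its peaks were seen. Some calls in it nearly abut, such as the MTVL PR peaks from 128821691 to 128822771 and from 128822820 to 128824387. The GR peaks from 128812796 to 128813518 and from 128813554 to 128814297 do so too. The counts of 4 and 6 thus depend on where calls were split. Peaks covered 25.8% of the stretch for GR, 24.9% for A1-2 PR and 51.0% for MTVL PR.

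Within the stretch, the first site held a GR peak from 128812796 to 128813518 (score 137), an A1-2 PR peak from 128812799 to 128813483 (score 273) and an MTVL PR peak from 128812361 to 128813531 (score 341). The site next to it ranked higher in the PR lists than in the GR list. It held a GR peak from 128813554 to 128814297 (score 299, above 69.6% of its list), an A1-2 PR peak from 128813636 to 128814142 (score 1934, above 94.1%) and an MTVL PR peak from 128813702 to 128814314 (score 2628, above 93.6%). The third common site held a GR peak from 128818831 to 128819545 (score 243), an A1-2 PR peak from 128818815 to 128819696 (score 328) and an MTVL PR peak from 128818648 to 128819704 (score 380), at similar ranks of 61.1%, 60.7% and 56.2%. The fourth held a GR peak from 128823384 to 128824124 (score 174), an A1-2 PR peak from 128823511 to 128824305 (score 1209.6) and an MTVL PR peak from 128822820 to 128824387 (score 2998). The PR peaks of that site ranked above 89.0% and 94.98% of their lists, and the GR peak above 43.8% of its list.

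The PR sites with the highest ranks near MYC thus carried GR peaks of ordinary score. Of the 1660 A1-2 PR peaks that scored 1934 or more, 98.5% lay at a GR Dex peak, and the GR peaks there had a median score of 901. A GR score of 299 or less, as at the MYC site, was found at 12.7% of these 1635 sites. Of the 3113 A1-2 PR peaks at or above the score of the fourth site, 2956 lay at a GR Dex peak with a median score of 617, and 7.58% of them had a GR score of 174 or less. Each set starts at the PR score of the MYC site, so that site has the lowest PR score in it. GR scores at PR peaks of matched score were not compared.

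**Figure D3:**
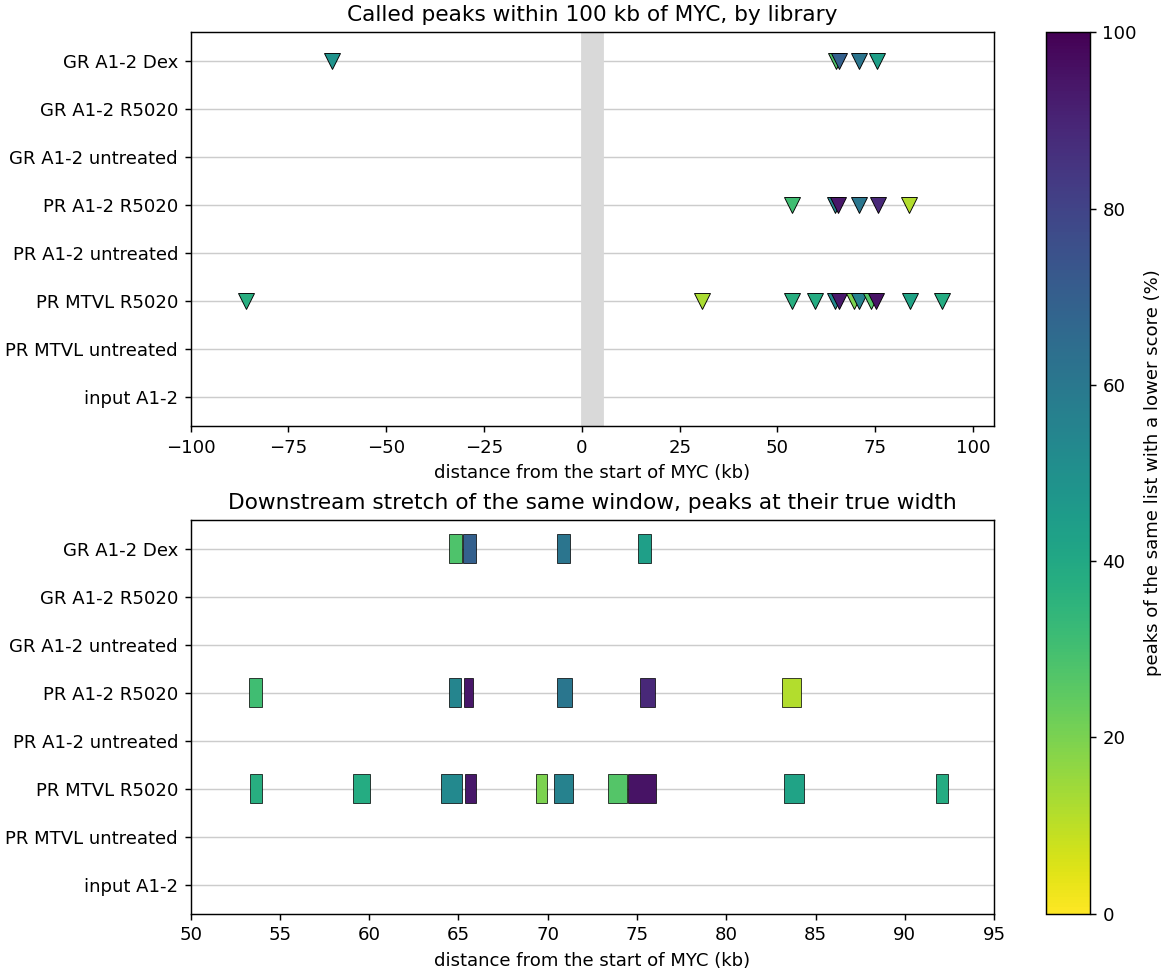
Called peaks of the 8 libraries (rows) by distance from the start of MYC in kb (horizontal axis), the whole window above with symbols at the peaks' midpoints and the gene body in grey, and below the downstream stretch with peaks drawn at their true width. Colour gives the percent of the same list that scored lower, and the 2 darkest PR sites of each line stand 65.6 and 75.3 kb from the gene start.

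The other downstream sites near MYC carried PR peaks and no GR peak. PR of both lines held a site 47.9 kb past the gene, with an A1-2 peak from 128801594 to 128802300 (score 161) and an MTVL peak from 128801646 to 128802291 (score 219). PR of both lines also held a site 77.8 kb past it, with an A1-2 peak from 128831462 to 128832488 (score 117, above 11.6% of its list) and an MTVL peak from 128831531 to 128832664 (score 248, above 41.9%). The 6 sites of MTVL PR alone, the upstream one included, scored from 126.5 to 225 and stood above 12.6% to 38.4% of their list. All 6 were thus in the lower part of the MTVL list, whose median score is 313.

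How far the receptors shared these sites was compared within A1-2 cells. Near CCND1, 4 of 5 GR Dex peaks overlapped an A1-2 PR peak, and near MYC 4 of 5 did. Together this was 8 of 10 (80%, 44.4 to 97.5), against 73.8% of all GR Dex peaks. In the other direction 4 of 4 A1-2 PR peaks near CCND1 and 4 of 6 near MYC overlapped a GR Dex peak, 8 of 10 in all (80%, 44.4 to 97.5), against 48.2% of all A1-2 PR peaks. Peaks of the same score deciles as the 4 near CCND1 lay at GR Dex peaks in 32.8% of cases on average over the list, and those of the same deciles as the 6 near MYC in 55.0%. With so few peaks the intervals near CCND1 (39.8 to 100) and near MYC (22.3 to 95.7) both include the 48.2% of the whole list. The 32.8% at the same score deciles lies below the interval near CCND1, and the 55.0% lies within that near MYC. The 4 of 4 depended on the rule. With midpoints within 200 bp asked for, 3 of the 4 near CCND1 were shared (75%), and within 200 kb of CCND1 4 of 6 were (66.7%). Between 100 kb and 1 Mb from CCND1, 33 of 52 A1-2 PR peaks lay at a GR Dex peak (63.5%, 49.0 to 76.4). The same held for 32 of 52 around MYC (61.5%, 47.0 to 74.7). Both shares lie within the interval near the same gene. Intervals of 4 and 6 peaks are too wide to decide whether the genes differ from their surroundings, and these shares were not matched by score. Of all 18 sites near the genes, 7 were held by all 3 lists, against 22.4% of the merged sites, 2 by PR of both lines alone, against 22.4%, and 0 by PR of A1-2 cells alone, against 5.69%.

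PR binding after R5020 was then set side by side in the lines. Of the A1-2 PR peaks, 3 of 4 near CCND1 and 6 of 6 near MYC were also MTVL sites, 9 of 10 in all (90%, 55.5 to 99.7), against 82.7% over the list. Of the MTVL PR peaks, 3 of 4 near CCND1 and 6 of 12 near MYC were also A1-2 sites, 9 of 16 in all (56.3%, 29.9 to 80.2), against 53.8% over the list. Both shares were close to those of the whole lists. Of the 10 GR Dex peaks 8 lay at an MTVL PR peak, against 69.3% over the list, and of the 16 MTVL PR peaks 8 lay at a GR Dex peak (50%, 24.7 to 75.3), against 29.5%. By gene this was 4 of 4 near CCND1 (39.8 to 100) and 4 of 12 near MYC (33.3%, 9.92 to 65.1). The list's share lies below the CCND1 interval and within the MYC interval. Such intervals treat neighbouring peaks of the same library as independent, so they cannot decide whether the CCND1 share differs from the list's. This share was not compared with the surroundings of the genes. Of the 16 MTVL peaks, the 8 at a GR Dex peak were found in A1-2 cells in 7 cases (87.5%, 47.3 to 99.7), against 91.3% over the list, and the exception was the last CCND1 site. The 8 away from GR Dex peaks, all near MYC, were found in 2 cases (25%, 3.19 to 65.1), against 38.1% over the list. GR peaks and A1-2 PR peaks come from the same cells, so sites of GR and sites that A1-2 libraries call more easily cannot be told apart.

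**Figure D4:**
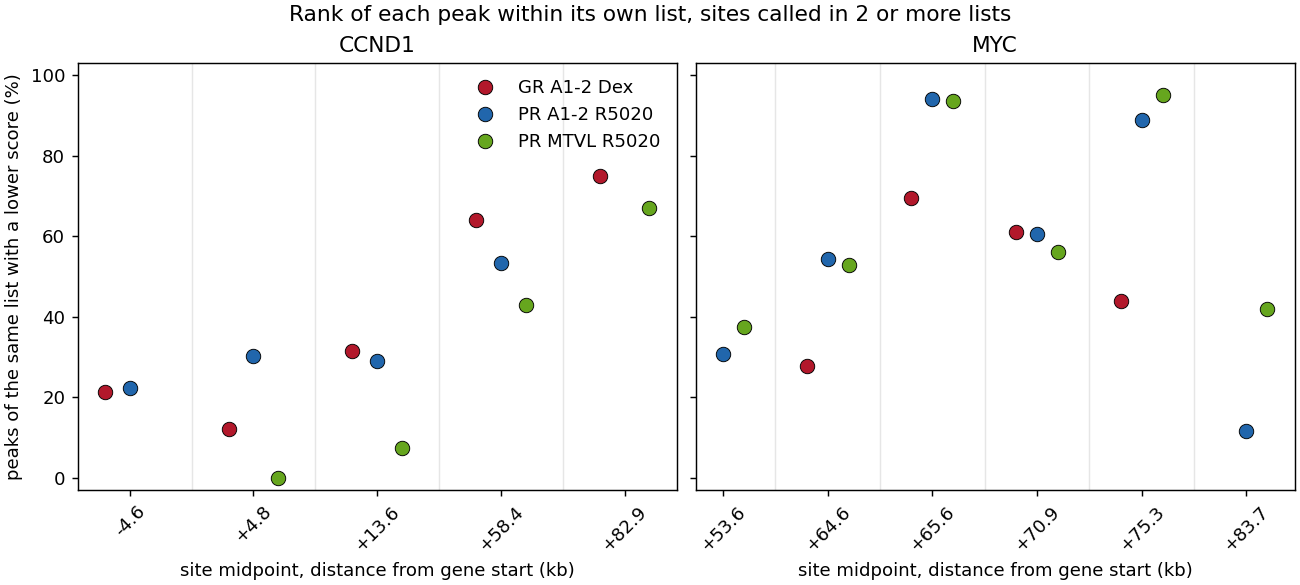
For the sites called in 2 or more lists near CCND1 (left) and MYC (right), each point gives the percent of peaks in the same list with a lower score (vertical axis), by the distance of the site's midpoint from the gene start in kb (horizontal axis, evenly spaced). PR points of both lines lie between 89.0% and 94.98% at the MYC sites 65.6 and 75.3 kb from the gene start, where GR stands at 69.6% and 43.8%, and the highest point at CCND1 is that of GR at 74.9%.

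The limit of 100 kb bore differently on the genes. Around CCND1 the outermost peaks inside it were those 69.2 kb past the gene, and the next ones outside lay 143 kb upstream (A1-2 PR, score 206, and MTVL PR, score 115) and 233.4 and 233.5 kb downstream (GR, score 113, and A1-2 PR, score 112). Around MYC the next site outside lay only 103.9 kb past the gene and outscored every GR and A1-2 PR peak inside, while 2 MTVL PR peaks inside scored higher than its own. It held a GR peak from 128857636 to 128858454 (score 1314), an A1-2 PR peak from 128857595 to 128858476 (score 1976.5) and an MTVL PR peak from 128857531 to 128858901 (score 1185). The highest GR score inside the MYC window was 299, and the outermost peaks inside it scored from 117 to 225.

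**Figure D5:**
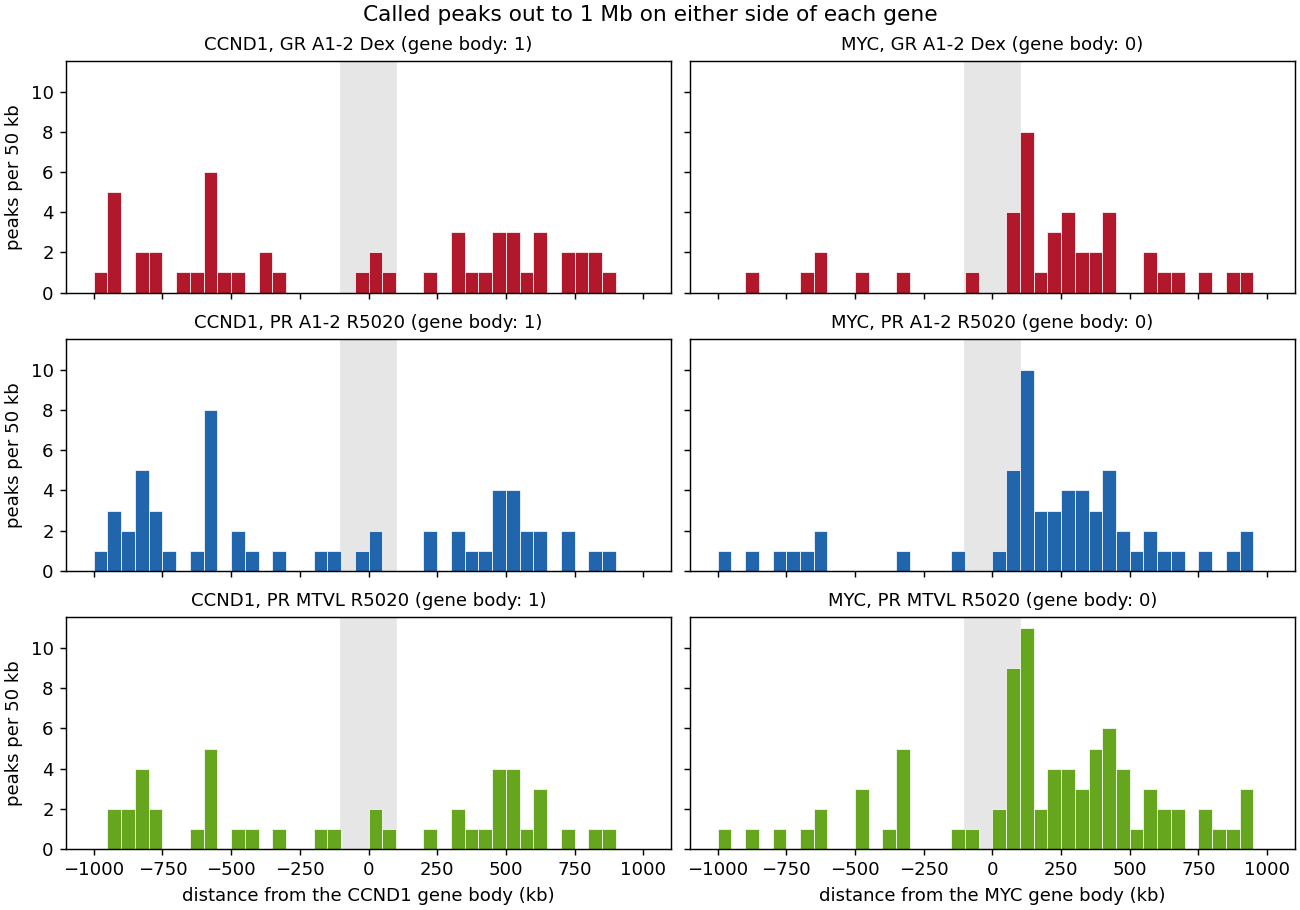
Peaks per bin of 50 kb (vertical axis) by the distance of the peak's midpoint from the gene body (horizontal axis, kb) out to 1 Mb on either side of CCND1 (left) and MYC (right), for GR after Dex and PR after R5020 in A1-2 cells and PR after R5020 in MTVL cells, with the 100 kb limit in grey and peaks with their midpoint in the gene body counted in the titles. The tallest bin at MYC is the one 100 to 150 kb past the gene in all 3 lists, with 8, 10 and 11 peaks.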

How the data were processed

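Each of the 8 deposited files lists peaks called in 1 library, with a score per peak that the authors deposited, taken here as MACS's -10 times log10 of the peak's p (lowest value 100, and a threshold of 1e-10 in the deposited names). Libraries were not pooled. Bowtie 1.1.1, MACS 1.4.2, bedtools and hg19 are named in the submitters' processing notes; their settings, the control library and read filters were not given in the sources used here. Scores were ranked within a list only, and the cuts of 160 and 200 were applied to every list alike.

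Samples were grouped by title. Starts were counted from 1, and chromosomes 1 to 22 and X were used, without receptor peaks overlapping an A1-2 input peak (no input of MTVL cells was used here). Peaks sharing at least 1 bp were called shared and merged to sites. Windows of each gene's window length were laid end to end from base 1 of each chromosome. Sites described in full were those called in at least 2 of the 4 hormone-treated lists or in the top 10% of a list. Genes, rules and lists were chosen with earlier results of these data known. Other growth genes were to be placed only with an hg19 annotation, and 0 were. RefSeq (GRCh38.p14) gave names and gene order only, and sequences of these peaks were not used here. Overlap steps were tested on simulated data and against bedtools 2.31.1. Python 3.11.15, numpy 2.4.6, pandas 2.3.3, scipy 1.17.1 and matplotlib 3.10.9 were used.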

Additional observations from a re-analysis of the deposited data

How the results depend on the processing

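No paired analysis was possible because each group had 1 library. Over 24 results (the peak counts of the 8 lists near each gene and 4 shares near each), 107 of 120 alternatives stayed within 1.5 times the count or within the interval of the share, and 13 did not. Many of these results are counts of 0, which a stricter rule cannot lower, and the intervals of the shares are wide. The 107 are therefore no measure of how stable the results are. When scores under 200 were dropped from every list, CCND1 kept 2 GR Dex, 1 A1-2 PR and 2 MTVL PR peaks, and MYC 2 GR Dex peaks. The share of A1-2 PR peaks at MTVL PR peaks near CCND1 was then 100%, of 1 peak, and that of GR Dex peaks at A1-2 PR peaks near MYC 100%, of 2 peaks. Within 50 kb of MYC there were 0 GR Dex, 1 A1-2 PR and 2 MTVL PR peaks, and within 200 kb 14, 20 and 26, with 1 PR peak of untreated MTVL cells. These changes follow from the rules themselves, which shorten the lists or move the window. For the results they were run on, asking for 50% overlap or for midpoints within 200 bp, and counting by midpoint gave no such change. Keeping peaks at input peaks could not change any result, because no peak near the genes overlapped an input peak. Depth, which is unknown, limits all counts. Near CCND1, 8 of the 13 peaks scored under 160, against 38.8%, 30.4% and 24.0% of all GR Dex, A1-2 PR and MTVL PR peaks. The share intervals rest on 4 to 16 peaks.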

Other observations

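Around CCND1 the number of receptor peaks per 100 kb was higher beyond the 100 kb limit than within it. The values within the limit rest on only 5 GR, 4 A1-2 PR and 4 MTVL PR peaks, so small differences carry little weight. Within 1 Mb of CCND1 there were 51 GR peaks after Dex, 56 PR peaks of A1-2 cells and 45 PR peaks of MTVL cells after R5020, although the MTVL list is the longest. Beyond the 100 kb limit this was 2.56, 2.89 and 2.28 peaks per 100 kb, against 2.34, 1.87 and 1.87 within it and 0.607, 0.932 and 1.42 over the genome. Of the 41 MTVL PR peaks between 100 kb and 1 Mb from CCND1, 40 were also A1-2 PR sites (97.6%, 87.1 to 99.9), against 61.4% on chromosome 11 and 53.8% over the list. These shares were not matched by score, and the interval treats neighbouring peaks as independent. Copy number of the region was not analysed here. The strongest GR peak within 1 Mb lay 564 kb upstream, from 68889424 to 68891567 (score 2777), with an A1-2 PR peak from 68888939 to 68892027 and an MTVL PR peak from 68889378 to 68891359, both with a score of 3100, a value at which many peaks are tied. Another, 481 kb upstream from 68974281 to 68975274 (score 2676), coincided with the only GR R5020 peak within 1 Mb of CCND1, from 68974300 to 68975204 (score 164). The strongest MTVL PR peak, 425 kb downstream from 69894644 to 69895782 (score 3200), had an A1-2 PR counterpart (score 2913) and a GR Dex peak of modest score (243).

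Around MYC the binding was one-sided out to 1 Mb, with 35 GR Dex, 49 A1-2 PR and 65 MTVL PR peaks downstream, against 7, 9 and 17 upstream. The densest bin of 50 kb in all 3 lists was the one 100 to 150 kb past the gene, with 8 GR, 10 A1-2 PR and 11 MTVL PR peaks. Its sites included one 110.5 kb past the gene, with the highest GR score within 1 Mb of MYC (from 128864217 to 128865794, score 1707), an A1-2 PR peak of score 2505 and an MTVL PR peak of score 3100. Another site of that bin, 128.6 kb past the gene, held the highest A1-2 PR score (from 128882266 to 128883746, score 2845), a GR Dex peak of score 725, an MTVL PR peak of score 3100 and also a PR peak of untreated MTVL cells, from 128882002 to 128884004 (score 118). The other PR peak of untreated MTVL cells within 1 Mb, from 129153445 to 129155022 (score 188), lay 400 kb past the gene at a site of GR after Dex (score 1542) and of PR after R5020 in A1-2 (score 2196) and MTVL cells (score 2902). The untreated lists of A1-2 cells and the GR R5020 list held 0 peaks within 1 Mb of MYC. The highest GR score upstream belonged to a peak 344 kb before the gene (from 128403088 to 128404060, score 1505), with an A1-2 PR peak of score 1257 and an MTVL PR peak of score 3100.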
